A study of Danio rerio with 11 samples.

Results

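Wild-type zebrafish embryos (Danio rerio) at 48 hours after fertilisation were described from the 5 libraries whose genotype label is WT, out of 11 libraries in the series. All embryos carried the TG(fli1:EGFP) transgene, in which the promoter of the vascular gene fli1 drives a green fluorescent protein, and were kept in E3 medium at 28.5 °C. PTU, a compound that suppresses melanin synthesis, was used for some embryos, and the labels do not say for which. Total RNA of whole embryos was sequenced on the BGISEQ-500 platform. The libraries are called WT 1 to WT 5 after their replicate labels. Whether a replicate was 1 embryo, a pool or a separate clutch is not stated, so the spread between libraries may be partly technical. The other 6 libraries are from aldh3a1_KO embryos and were not compared here. In the WT libraries aldh3a1, which encodes an aldehyde dehydrogenase, was at 1.34, 1.35, 1.18, 1.42 and 1.96 TPM.

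At this stage the zebrafish embryo is close to hatching. The trunk muscle contracts, the lens is filling with crystallins, embryonic red cells circulate, pigment cells are melanising, and a yolk cell covered by the yolk syncytial layer still supplies lipid. Transcripts of the protein synthesis machinery and of mitochondria are made in every cell, while contractile, crystallin, keratin and globin transcripts are concentrated in few cell types. In whole-embryo RNA, fewer cells of a type and less RNA per cell cannot be told apart.

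Each WT library held 18.1 to 19.97 M estimated counts over 30243 listed genes (mean 19.4 ± 0.753 M, SD, n = 5 here and for every mean ± SD that follows). The levels given are the authors' TPM, a relative transcript abundance scaled for transcript length and depth. A share is the percentage of the TPM of all listed genes, which summed to 91.6 to 92.2% of the TPM total of a library. Between 17523 and 18368 genes reached 1 TPM in a library, and 15905 did so in all 5, which is 52.6% of the listed genes. They include 14680 of the 24165 genes that the RefSeq table calls protein coding. A further 3920 genes reached 1 TPM in 1 to 4 libraries, and 1810 had no count in any WT library. Only 864 genes averaged 100 TPM or more, and 152 averaged 1000 TPM or more.

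The transcriptome was led by ribosomal protein genes, mitochondrially encoded genes and muscle genes. Of the 30 genes with the highest mean TPM, 14 encode ribosomal proteins, 5 are mitochondrially encoded and 4 encode skeletal muscle proteins. A set of 99, 114, 115, 90 and 107 genes held 50% of the TPM in WT 1 to WT 5 (105 ± 10.6 genes). The 10 most abundant genes held 13.1% ± 0.599 and the 100 most abundant 49.2% ± 2.51. Their membership was shared: 84 genes were among the 100 most abundant of every WT library, and 119 were among the 100 of at least 1.

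Highest of all was rpl27a, which encodes a protein of the large ribosomal subunit, at 27854, 26262, 19689, 34841 and 30611 TPM in WT 1 to WT 5. WT 4 was highest and WT 3 lowest. COX2 and COX1, mitochondrial genes for subunits of cytochrome c oxidase, averaged 16334 ± 802 and 11501 ± 950 TPM, and COX3, for another subunit, 12826 ± 775 TPM. ATP8 and ATP6, for subunits of the mitochondrial ATP synthase, averaged 9754 ± 2216 and 9570 ± 758 TPM. Next came pvalb1, a calcium-buffering parvalbumin of fast muscle, at 9202, 8872, 9256, 6968 and 9033 TPM, lowest in WT 4. The actin gene actc1b, used in embryonic skeletal muscle, was at 6888, 8974, 15431, 2608 and 4528 TPM. Its 5 values spanned from WT 4, the lowest, to WT 3, the highest, far wider than those of pvalb1. The elongation factor gene eef1a1l1, which delivers aminoacyl-tRNA to the ribosome, was at 5939, 6646, 7341, 6028 and 6524 TPM. Outside these groups, the 30 included the epidermal keratin gene krt4, at 5253, 5270, 6596, 4468 and 3623 TPM. They also held ppiaa, a peptidyl-prolyl isomerase, at 4918 ± 621 TPM, ptmab, a prothymosin, at 4597 ± 334 TPM, and tpt1 at 4580 ± 405 TPM.

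**Figure D1:**
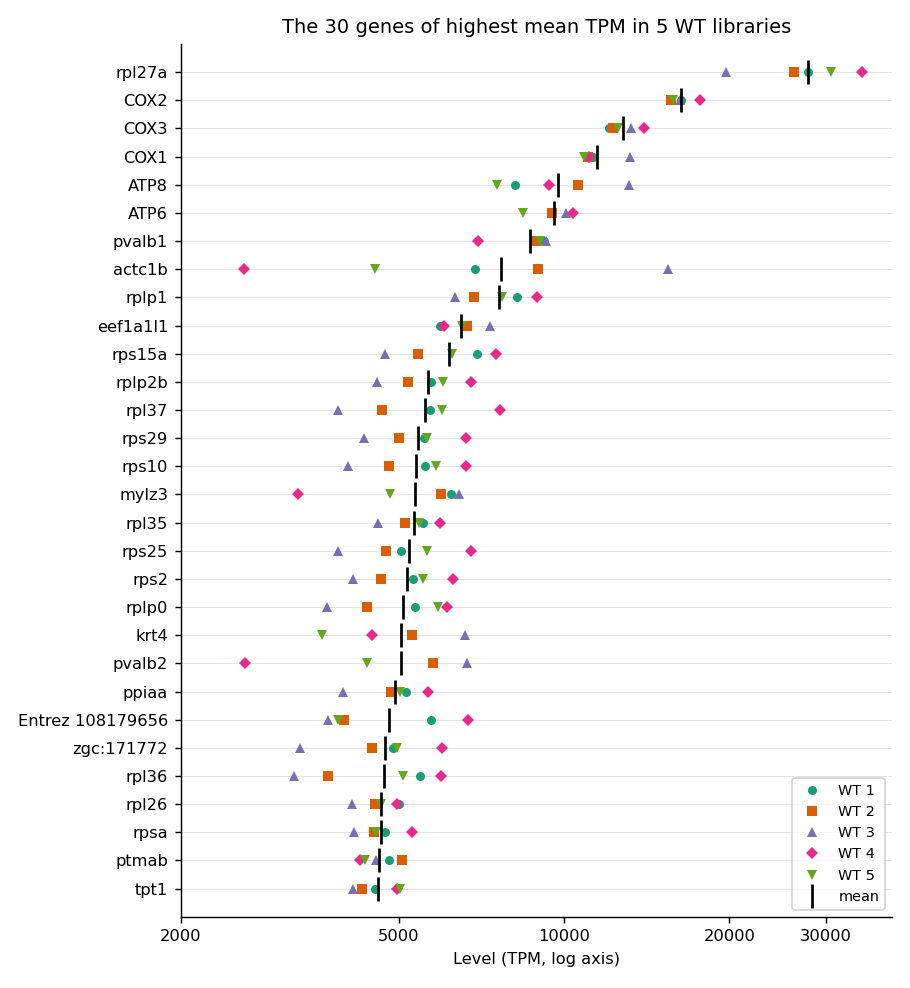
Level in TPM (log axis) of the 30 genes with the highest mean TPM, with 1 point per WT library and a black bar at the mean. The point of rpl27a stands apart at the top, and actc1b spreads most widely, from 2608 TPM in WT 4 to 15431 TPM in WT 3.

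The order of the leading genes depends on the scaling for transcript length. Very short effective lengths, read here as estimated counts per TPM, raise a gene's TPM: that of rpl27a was 0.0267 and that of ATP8 0.0128 of the median gene's. The 824 listed genes under 10% of the median length held 11.1% of TPM but 0.995% of the estimated counts. By CPM (estimated counts over the library total, scaled between libraries by TMM), which rewards long transcripts instead, COX1 led at 15945 CPM, followed by krt4 at 11838 CPM. Next by CPM were eef1a1l1, actc1b, COX2, COX3, atp2a1, actb2, myhz1.1 and eef2b, a ranking examined after the values were seen. The 30 leading genes by CPM shared 15 genes with the 30 by TPM and held 3 ribosomal, 5 mitochondrial and 8 muscle genes.

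Shares were summed over 30 tissue lists and 12 cell function lists that do not overlap. A share depends on how many genes a list names, so its change between libraries says more than its rank among lists. The 686 cell function genes took 51.9% ± 3.47 of TPM and the 1027 tissue genes 11.9% ± 2.74. Ribosomal protein genes alone took 31.9, 28.4, 25.4, 35.7 and 32.3% in WT 1 to WT 5 (30.7% ± 3.94, 87 genes). Within them the large subunit took 18.1% ± 2.34 and the small subunit 12.04% ± 1.53. The 13 mitochondrially encoded genes took 8.76, 8.75, 9.80, 9.34 and 8.13% (8.96% ± 0.636). Both groups were spread over many transcripts, with 9.86% of the ribosomal share in rpl27a and 19.9% of the mitochondrial share in COX2.

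The remaining cell function programs were smaller. Nuclear-encoded respiratory chain genes took 2.47% ± 0.0787, translation factors 2.14% ± 0.116, RNA-binding and splicing genes 1.87% ± 0.147 and cytoskeletal actins and tubulins 1.76% ± 0.0672. Chaperones took 1.59% ± 0.0565, histones 0.764% ± 0.0762, the proteasome 0.582% ± 0.0323 and the iron and redox list 0.363% ± 0.0208. Among the cell function lists, glycolysis varied most for its size, with shares of 0.314, 0.326, 0.486, 0.227 and 0.295% in WT 1 to WT 5. Its leading gene gapdh, which encodes glyceraldehyde-3-phosphate dehydrogenase, was at 974, 869, 1571, 499 and 775 TPM, highest in WT 3 and lowest in WT 4. Cell cycle genes took 0.324, 0.346, 0.337, 0.265 and 0.248%, with lower shares in WT 4 and WT 5 than in the other 3 libraries. The replication clamp gene pcna was at 588, 549, 522, 476 and 399.6 TPM and the proliferation marker mki67 at 91.4, 110.0, 118, 71.3 and 59.25 TPM, likewise lower in WT 4 and WT 5; both were chosen after their values were seen.

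**Figure D2:**
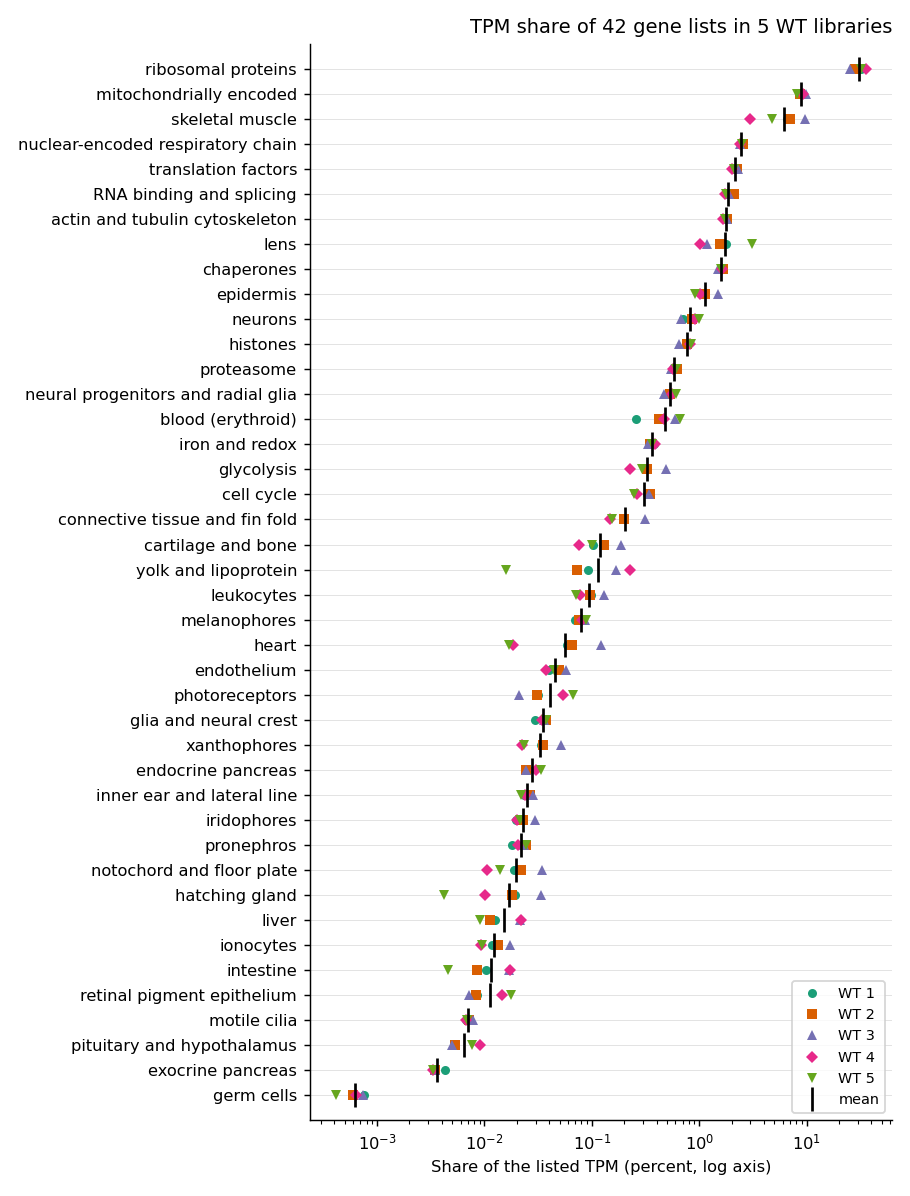
Share of listed TPM (percent, log axis) of the 42 tissue and cell function programs, with 1 point per WT library and a black bar at the mean. Ribosomal proteins lie near 30.7% and germ cells near 0.000629%, and the points of muscle, yolk and lipoprotein, heart and hatching gland are spread more widely than those of most cell function programs.

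The spread of single genes was taken as the SD of log2(CPM + 0.5) over the 5 libraries for the 10761 genes with a mean of at least 10 CPM. Of these, 15.0% (1619 genes) ranged over at least 2-fold between the highest and lowest library, and 9.13% (983 genes) had an SD of 0.5 or more. Without WT 3 the first count was 1019 genes, or 9.50%. The tissue lists had 262 of 517 such genes with a 2-fold range and a median SD of 0.411, against 62 of 577 and 0.192 for the cell function lists. The median SD over all 10761 genes was 0.209. With 1 group there is no contrast to test, so these counts are descriptions. Below, the count of genes that were highest or lowest in a library is on the TMM-scaled CPM unless the TPM scale is named.

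Skeletal muscle was the largest tissue program and varied 3.27-fold. It took 6.56, 7.01, 9.76, 2.98 and 4.72% of TPM in WT 1 to WT 5 (6.21% ± 2.55, 93 genes). WT 4 was lowest for 71 of the 76 muscle genes with at least 10 CPM, or 69 on the TPM scale, and WT 3 highest for 63, or 70 on the TPM scale. Over all genes, after TMM scaling, WT 4 was lowest for 30.01% and WT 3 highest for 24.0%. A 2-fold range was reached by 67 of the 76, against 15.0% of all genes. The median SD of the 76 was 0.720. The sarcoplasmic calcium pump gene atp2a1 was at 1689, 2227, 4461, 357 and 1014 TPM, the same order of libraries as actc1b. Fast myosin heavy chain gene myhz1.1 was at 754, 996, 2081, 209 and 414 TPM, and the slow fibre gene smyhc1 at 56.8, 53.5, 119, 14.7 and 20.2 TPM. Fast and slow fibre myosins were thus both highest in WT 3 and lowest in WT 4. Creatine kinase gene ckmb was at 3138, 3320, 4897, 1105 and 2075 TPM, and tropomyosin gene tpma at 4292, 4252, 5966, 1428 and 2606 TPM. Apart from actc1b, the genes of this paragraph were chosen after their values were seen.

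Within muscle, families differed in how far they ranged. The 5 fast myosin heavy chains took 0.140, 0.185, 0.394, 0.0352 and 0.0772%, an 11.2-fold range. The 10 fast troponin genes ranged 3.39-fold, and the 4 muscle parvalbumins only 1.70-fold, at 1.58% ± 0.296. Transcription factors of the myogenic lineage did not share 1 order. The gene myog was at 13.2, 14.7, 15.102, 16.1 and 14.5 TPM, nearly level, and myod1 at 18.9, 15.102, 14.4, 27.0 and 12.7 TPM, highest in WT 4 where the contractile genes were lowest. In contrast, myf5 was at 7.01, 7.06, 9.49, 2.29 and 2.04 TPM and myf6 at 4.90, 4.3, 7.14, 1.37 and 0.672 TPM, with lower values in WT 4 and WT 5. These 4 genes were chosen from the muscle list after their values were seen.

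The heart list was led by genes that are not specific to it. It took 0.0590, 0.0656, 0.121, 0.0183 and 0.0169% of TPM, but actc1a, a sarcomeric actin, held 57.3% of its total and the 3 leading genes 86.6%. Both actc1a, at 305, 369, 708, 41.9 and 54.0 TPM, and the calcium store gene casq2, at 131, 164, 272, 45.7 and 46.1 TPM, followed the muscle genes, with WT 3 highest and WT 4 lowest. The cardiac myosin light chain gene myl7 did not, at 27.8, 13.1, 28.6, 16.8 and 8.599 TPM. For myl7 the lowest library was WT 5, and WT 1 and WT 3 were nearly equal. The cardiac genes cmlc1, at 21.1, 11.0, 22.9, 11.9 and 5.45 TPM, and tnnt2a, a troponin, at 8.35, 5.14, 12.6, 7.47 and 3.67 TPM, had the same order as myl7. Those 2 genes were chosen after their values were seen. Not every gene of the list had that order. The gene nkx2.5 was at 0.915, 0.627, 0.216, 3.36 and 1.61 TPM and myl4 at 1.36, 1.66, 2.24, 3.19 and 2.88 TPM. Both were low but highest in WT 4, and they were also chosen after their values were seen.

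By TPM share the lens was the second largest tissue program, at 1.79, 1.57, 1.18, 1.02 and 3.08% of TPM (1.73% ± 0.814, 78 genes), with WT 5 highest. By share of estimated counts it held 0.959%, less than epidermis with 1.82% and neurons with 1.40%. A 2-fold range was reached by 44 of its 45 genes with at least 10 CPM, against 15.0% of all genes. WT 5 was highest for 36 of the 45, against 29.1% of all genes. The lowest library was WT 3 for most of the 45 after TMM scaling and WT 4 on the TPM scale. The beta crystallin genes, for structural proteins of the lens fibre, took 0.778% ± 0.269. Among them cryba4 was at 1462, 1290, 1005, 773 and 2149 TPM and crybb1 at 1381, 1277, 973, 738 and 2093 TPM. Of the 12 beta crystallin genes with at least 10 CPM, 7 were highest in WT 5, 3 in WT 3, 1 in WT 1 and 1 in WT 2. For 3 of the 12 the lowest library was WT 5. The gamma M crystallins, which pack the fish lens densely, took 0.799, 0.642, 0.459, 0.49998 and 1.74%, and all 23 with at least 10 CPM were highest in WT 5. The gene crygm2d10 was at 304, 105, 85.3, 268 and 1948 TPM. Many crygm2d genes are near-identical copies, so the split of reads among them is uncertain. Among the beta crystallin genes outside that order, crybb1l1 was at 539, 644, 649, 102 and 563 TPM, low in WT 4 alone. Among non-crystallin genes, mipb, a lens water channel, was at 77.5, 78.1, 71.7, 49.5 and 80.7 TPM. These last 3 genes were chosen after their values were seen.

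The summed shares of photoreceptor genes and retinal pigment epithelium genes were higher in WT 4 and WT 5 than in the other 3 libraries. Photoreceptor genes took 0.0313, 0.0306, 0.0210, 0.0534 and 0.0662% of TPM, and the pigment epithelium list 0.00860, 0.00834, 0.00716, 0.0146 and 0.0175%. The homeobox gene crx, which drives photoreceptor differentiation, was at 61.9, 56.9, 33.7, 109 and 147 TPM, and otx5, a related gene, at 33.1, 36.1, 22.8, 53.6 and 75.1 TPM. Rhodopsin, the rod pigment encoded by rho, was at 1.54, 0.573, 1.24, 18.1 and 20.98 TPM, so the values of WT 4 and WT 5 lay far above the rest. The 8 cone opsin genes together held only 0.000156%. A 2-fold range was reached by 10 of 13 photoreceptor genes and 4 of 6 pigment epithelium genes, against 15.0% of all genes. The retinaldehyde-binding gene rlbp1a was at 13.9, 12.8, 8.57, 28.0 and 22.9 TPM. The visual cycle gene rpe65a, chosen after its values were seen, was at 6.88, 6.03, 4.94, 14.5 and 16.1 TPM. Not every member had that order: its paralogue rpe65b was at 6.24, 5.70, 7.54, 5.47 and 4.18 TPM, lowest in WT 5, and the photoreceptor gene unc119b was at 12.9, 16.4, 15.3, 10.7 and 12.04 TPM, lowest in WT 4. These 2 genes were also chosen after their values were seen.

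Skin, connective tissue and cartilage genes shared WT 3 as their highest library. The epidermis list took 1.07, 1.13, 1.51, 1.02 and 0.906% of TPM (1.13% ± 0.228), with 48.7% of it in krt4 and 0.931% ± 0.186 of TPM in keratins as a family. WT 3 was highest for 41 of its 45 genes with at least 10 CPM, against 24.0% of all genes. The keratin gene cyt1 was at 1107, 1207, 1602, 1433 and 1111 TPM. The cell adhesion gene epcam was at 53.1, 58.9, 82.6, 30.6 and 31.5 TPM and tp63, a basal keratinocyte regulator, at 11.3, 12.7, 18.04, 7.63 and 4.92 TPM; both were chosen after their values were seen and were lower in WT 4 and WT 5. The lowest library of the list was WT 5 by its summed TPM share and by the median TMM-scaled deviation of its genes. By the median deviation of its genes on the TPM scale it was WT 4.

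The connective tissue and fin fold list took 0.196, 0.198, 0.316, 0.149 and 0.155% of TPM. WT 3 was highest for 40 of the 43 genes of this list with at least 10 CPM, against 24.0% of all genes. The matrix glycoprotein gene sparc was at 442, 437, 572, 377 and 354 TPM and the fibrillar collagen gene col1a2 at 179.7, 187, 274, 143 and 153 TPM. Cartilage and bone genes took 0.103, 0.129, 0.186, 0.0765 and 0.0996%. Cartilage collagen gene col2a1a was at 153, 199, 297, 112 and 174 TPM, and matn4, a matrilin of cartilage matrix, at 78.0, 71.0, 110.4, 73.1 and 91.6 TPM. Over all 58 listed collagen genes the share was 0.156% ± 0.0555, and 35 of the 38 with at least 10 CPM were highest in WT 3. A 2-fold range was reached by 20 of 45 epidermis, 19 of 43 connective tissue and 12 of 21 cartilage genes, against 15.0% of all genes. The notochord and floor plate list, led by cav3, which muscle also expresses, took 0.0198% ± 0.00914.

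Nervous system genes varied less than those of muscle or lens. The neuron list took 0.704, 0.861, 0.683, 0.906 and 0.987% of TPM (0.828% ± 0.131, 67 genes). Of its 59 genes with at least 10 CPM, 46 were highest in WT 5, against 29.1% of all genes. After TMM scaling the lowest library of the list was WT 3, and on the TPM scale WT 1 was lowest for 35 of the 59. A 2-fold range was reached by 21 of the 59, against 15.0% of all genes. The tubulin gene tuba1a was at 970, 1314, 832, 1149 and 943 TPM, with no such order. The thymosin gene tmsb was at 1006, 997, 724, 1259 and 1105 TPM. Next are 3 neuronal genes chosen after their values were seen. The RNA-binding gene elavl3, an early neuronal marker, was at 251, 316, 260, 262 and 266 TPM, the growth cone gene gap43 at 178, 220, 157, 277 and 276 TPM and snap25b, of the synaptic release machinery, at 18.2, 21.3, 17.3, 38.6 and 45.5 TPM. For snap25b WT 4 and WT 5 lay above the other 3 libraries, and for elavl3 they lay among them.

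Neural progenitor and radial glia genes took 0.531% ± 0.0523, with 6 of 43 genes at a 2-fold range, near the 15.0% of all genes. The fatty acid-binding gene fabp7a, a radial glia marker, held 44.7% of that share and was at 1991, 1888, 1562, 2610 and 2860 TPM. The HMG-box gene hmgb3a was at 682 ± 101 TPM and the progenitor factor sox3 at 149 ± 27.7 TPM. The glia and neural crest list took 0.0349% ± 0.00324, led by the glutamate transporter gene slc1a2b at 77.3, 120.4, 119, 140.2 and 163 TPM. The inner ear and lateral line list took 0.0246% ± 0.00252, with the otolith gene stm at 48.0 ± 4.92 TPM. The endocrine pancreas list took 0.0277% ± 0.00418, and its 3 leading genes, nkx6.1, scg5 and scg2b, are also made by neurons. The pituitary and hypothalamus list took 0.00647% ± 0.00179.

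Erythroid genes took 0.260, 0.424, 0.5998, 0.466 and 0.657% of TPM (0.481% ± 0.156), with WT 1 lowest. Nearly all of it was globin, at 0.226% ± 0.0828 for alpha globins and 0.222% ± 0.0717 for beta globins. The embryonic alpha globin gene hbae3 was at 377, 674, 912, 799 and 995 TPM and the embryonic beta globin gene hbbe1.1 at 314, 473, 884, 706 and 1299 TPM. WT 1 was the lowest library in both, and WT 5 the highest. These globin genes are close copies, and the split of reads among them is uncertain. A 2-fold range was reached by 12 of 28 erythroid genes, against 15.0% of all genes. Among the 12 were all 4 alpha globin genes with at least 10 CPM and 4 of the 5 such beta globin genes. Outside the globins the lowest library varied. Of the genes with a 2-fold range, tmod4, rhag and sptb were lowest in WT 4 and highest in WT 3. By TPM these had the same order of libraries as the muscle gene actc1b. Whether muscle transcripts enter their values was not tested. The gene slc4a1a, also with a 2-fold range, was lowest in WT 1. The gene hmbsa, without a 2-fold range, was highest in WT 1 and lowest in WT 5. These non-globin genes of the erythroid list were chosen after their values were seen. After TMM scaling WT 5 was the highest library for 15 of the 28, against 29.1% of all genes. On the TPM scale WT 3 was highest for 14 of the 28 and WT 5 for 10.

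Vessel genes were at a low level. The endothelium list took 0.0403, 0.0497, 0.0572, 0.0377 and 0.0440% (0.0458% ± 0.00782), and 4 of its 20 genes with at least 10 CPM had a 2-fold range, against 15.0% of all genes. The ETS factor gene fli1, whose promoter drives the reporter of this line, was at 108, 150.1, 194, 81.1 and 92.1 TPM. The vascular endothelial growth factor receptor gene kdrl, at 3.95, 4.27, 6.92, 3.34 and 3.54 TPM, and the endothelial cadherin gene cdh5, at 1.52, 2.64, 5.18, 1.62 and 2.57 TPM, were chosen after their values were seen. All 3 were highest in WT 3. In the leukocyte list (0.0948% ± 0.0231), pfn1, an actin-binding gene of broad expression, held 83.1% of the share, so the share mostly does not describe leukocytes. The lysozyme gene lyz was at 6.91, 8.69, 23.5, 12.04 and 24.2 TPM, highest in WT 3 and WT 5.

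The yolk and lipoprotein list had the widest range of all programs, 14.1-fold. It took 0.0913, 0.0729, 0.166, 0.224 and 0.0159% of TPM in WT 1 to WT 5. All 11 of its genes with at least 10 CPM were lowest in WT 5, against 18.7% of all genes. All 11 had a 2-fold range, against 15.0% of all genes, and 8 were highest in WT 4 and 3 in WT 3. Over all genes WT 4 was highest for 13.6% and WT 3 for 24.0%. The apolipoprotein gene apoa1a, whose protein coats lipoprotein particles, was at 248, 140.4, 323, 513 and 25.5 TPM. Its partners apoa2, at 139, 121, 345, 516 and 19.05 TPM, and apoc1, at 177, 155, 289, 476 and 23.5 TPM, followed the same order of libraries. The large lipoprotein carrier apobb.1 was at 4.67, 4.93, 15.7, 8.77 and 0.309 TPM, again lowest in WT 5 but highest in WT 3. Apolipoprotein genes are made by the yolk syncytial layer, the liver and the gut, which whole-embryo values do not separate.

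Liver and intestine lists were low and had the same lowest library, WT 5, as the yolk and lipoprotein list. The liver list took 0.0125, 0.0113, 0.0215, 0.0220 and 0.00908%, led by the retinol carrier rbp4 at 50.7, 56.4, 108.7, 90.7 and 61.4 TPM. The gene rbp4 held 52.4% of that share and was itself lowest in WT 1 by TPM. Transferrin, encoded by tfa, was at 9.28, 6.19, 16.4, 26.9 and 2.83 TPM and the fibrinogen gene fgb at 8.75, 6.03, 7.47, 14.8 and 1.04 TPM, lowest in WT 5 for both. The hepatocyte marker fabp10a, chosen after its values were seen, was at 0.440, 0.697, 0.496, 2.41 and 1.96 TPM, without that order. The intestine list took 0.0103, 0.00851, 0.0167, 0.0174 and 0.00453%, led by the fatty acid-binding gene fabp1b.1 at 47.4, 37.6, 86.4, 112.1 and 9.34 TPM. That gene held 55.4% of the intestine share and had the same order of libraries as apoa1a. Whether the yolk syncytial layer adds to the intestine share was not tested. Exocrine pancreas genes took only 0.00358% ± 0.000410, and 47.4% of that share was in 1 gene. This leader was the progenitor factor ptf1a at 15.6 ± 3.22 TPM, with the elastase gene cela1.4 at 3.90 ± 0.440 TPM. Whole-embryo values do not show which tissue made the ptf1a transcripts.

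The summed share of the hatching gland list ranged 7.998-fold, at 0.0194, 0.0181, 0.0332, 0.0102 and 0.00416% of TPM. Only 2 of its 6 genes reached 10 CPM, and 1 of these had a 2-fold range, against 15.0% of all genes. The hatching enzyme gene he1.1, for a protease that digests the egg envelope, held 81.6% of that share and was at 147, 134, 261, 73.1 and 21.5 TPM. WT 3 was highest and WT 5 lowest. The protease gene ctslb, chosen after its values were seen, had the same highest and lowest library at 4.39, 4.37, 6.37, 0.889 and 0.231 TPM.

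Melanophore genes were all detected: all 19 reached 1 TPM in every library, and the share was 0.0798% ± 0.00753. Of 16 genes with at least 10 CPM, 2 had a 2-fold range, near the 15.0% of all genes. The melanin synthesis gene dct was at 121, 142, 163, 129 and 158 TPM, pmela, for the melanosome fibril protein, at 99.1, 101, 133, 96.3 and 106 TPM, and tyrp1b at 199, 202, 212, 277 and 286 TPM. For tyrp1b the values of WT 4 and WT 5 lay above the rest, which dct and pmela did not share. The 2 genes with a 2-fold range were tyr, for tyrosinase, at 14.3, 18.2, 33.7, 12.3 and 13.05 TPM and the tetraspanin gene tspan36 at 11.96, 15.0, 18.8, 2.03 and 3.38 TPM, and these 2 were named after their values were seen. Xanthophore genes, which make yellow pteridine pigment, took 0.0331% ± 0.0116, with gch2 at 171, 162, 228, 115 and 110.1 TPM. Iridophore genes took 0.0227% ± 0.00419, led by the purine synthesis gene paics, which dividing cells also use, with the purine gene pnp4a at 20.9, 26.8, 29.7, 28.5 and 36.2 TPM.

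The remaining lists were small. Pronephros genes took 0.0221% ± 0.00274 and their leading genes, lhx1a and pax2a, are also used in the nervous system. Ionocyte genes took 0.0123% ± 0.00324, motile cilia genes 0.00709% ± 0.000426 and germ cell genes 0.000629% ± 0.000136. In the germ cell list 1 of 11 genes, gra, reached 1 TPM in every library, at 2.36 ± 0.102 TPM.

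**Figure D3:**
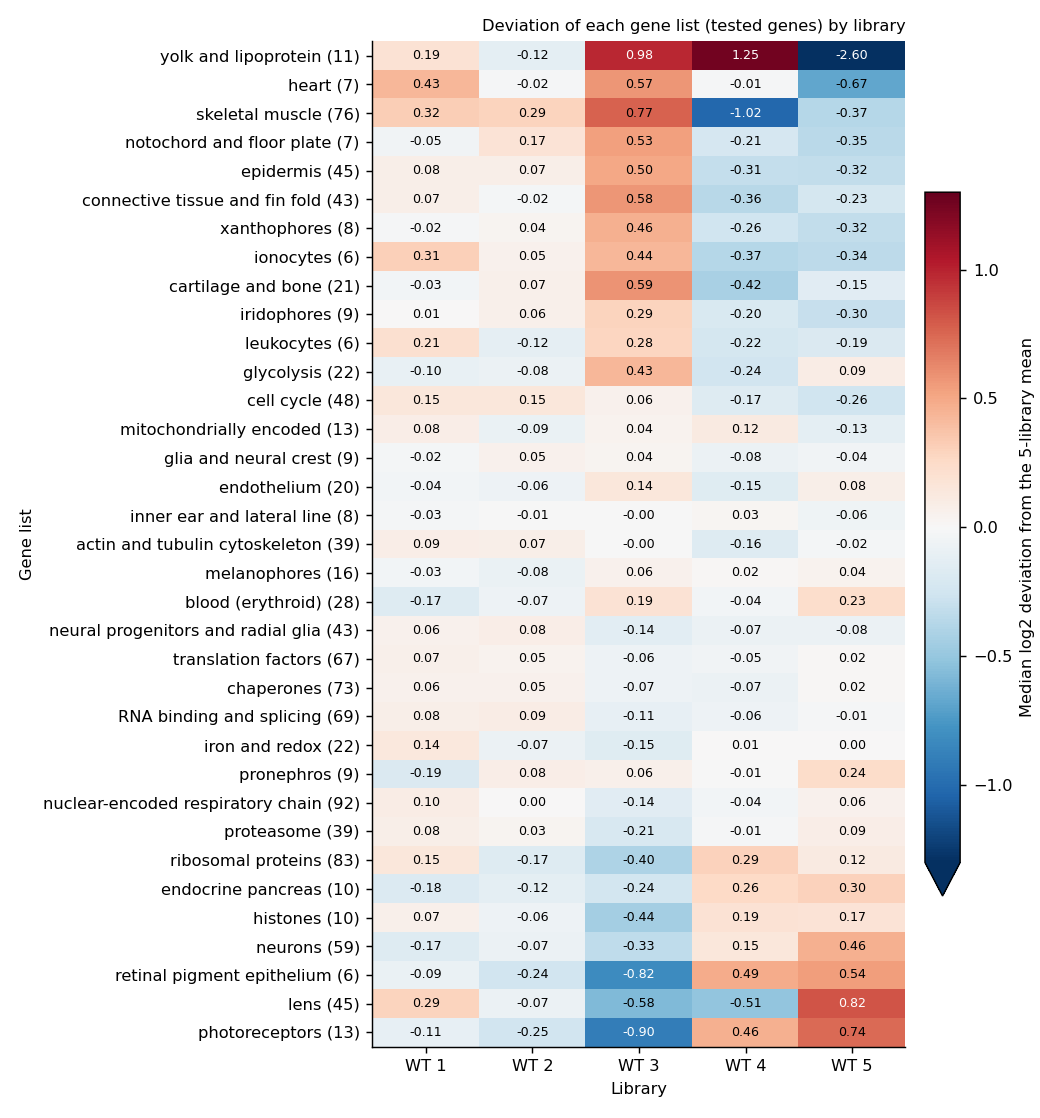
Median log2 deviation of each program's genes (rows, with the number of genes of at least 10 CPM) from their 5-library mean in each WT library (columns), after TMM scaling. Yolk and lipoprotein reaches −2.60 in WT 5, muscle −1.02 in WT 4 and photoreceptors −0.90 in WT 3, while the rows of translation factors and melanophores stay within 0.10 of 0.

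The libraries differed by whole programs. Against each gene's mean, WT 3 had median log2 deviations of 0.77 for muscle, 0.50 for epidermis, 0.58 for connective tissue and 0.59 for cartilage, and of −0.33 for neurons, −0.90 for photoreceptors and −0.40 for ribosomal proteins. WT 4 had −1.02 for muscle, −0.31 for epidermis and −0.36 for connective tissue, and 0.46 for photoreceptors and 0.29 for ribosomal proteins. WT 5 had 0.82 for lens, 0.74 for photoreceptors and 0.46 for neurons, and −2.60 for yolk and lipoprotein. WT 1 and WT 2 lay between, with muscle at 0.32 and 0.29 and photoreceptors at −0.11 and −0.25. Scaling by TPM in place of TMM moved the median of all tested genes by −0.07, 0.09, 0.11, −0.09 and −0.02 in WT 1 to WT 5.

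Ribosomal protein genes moved as a block. WT 3 was lowest for 80 of the 83 with at least 10 CPM, 70 on the TPM scale, and WT 4 highest for 68, 67 on the TPM scale. Over all genes the TMM-scaled shares were 31.6% and 13.6%. Among the 83, 11 had a 2-fold range, a share near the 15.0% of all genes, and their median SD was 0.289, against 0.209 for all genes. Transcript length moved with it. The 10% of tested genes with the shortest effective length had median deviations of 0.13, −0.03, −0.24, 0.08 and 0.07 in WT 1 to WT 5, and 0.13, −0.01, −0.22, 0.06 and 0.06 when ribosomal genes were left out. The longest 10% had −0.04, 0.06, 0.10, −0.07 and −0.05. The part of transcript length in the ribosomal result was not tested. Histone genes, which are also short, had deviations of 0.07, −0.06, −0.44, 0.19 and 0.17.

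Across the 10761 genes, WT 1 and WT 2 were the most alike pair, with a Pearson correlation across genes of 0.984 on the log2 scale and 34 genes (0.316%) more than 2-fold apart. WT 3 and WT 5 were the least alike, with 0.897 and 1026 genes (9.53%). The second least alike pair was WT 3 and WT 4, with 963 genes. In a principal component analysis, WT 3 stood opposite WT 4 and WT 5 on the leading axis (65.1% of variance), and WT 4 opposite WT 5 on the next (20.3%). WT 5 was the highest library for 29.1% of the genes and WT 3 the lowest for 31.6%, where an equal split would give 20%. Every pair differed by more than counting error, with a chi-square per gene of 22.1 or more, so no 2 libraries were taken as 1.

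**Figure D4:**
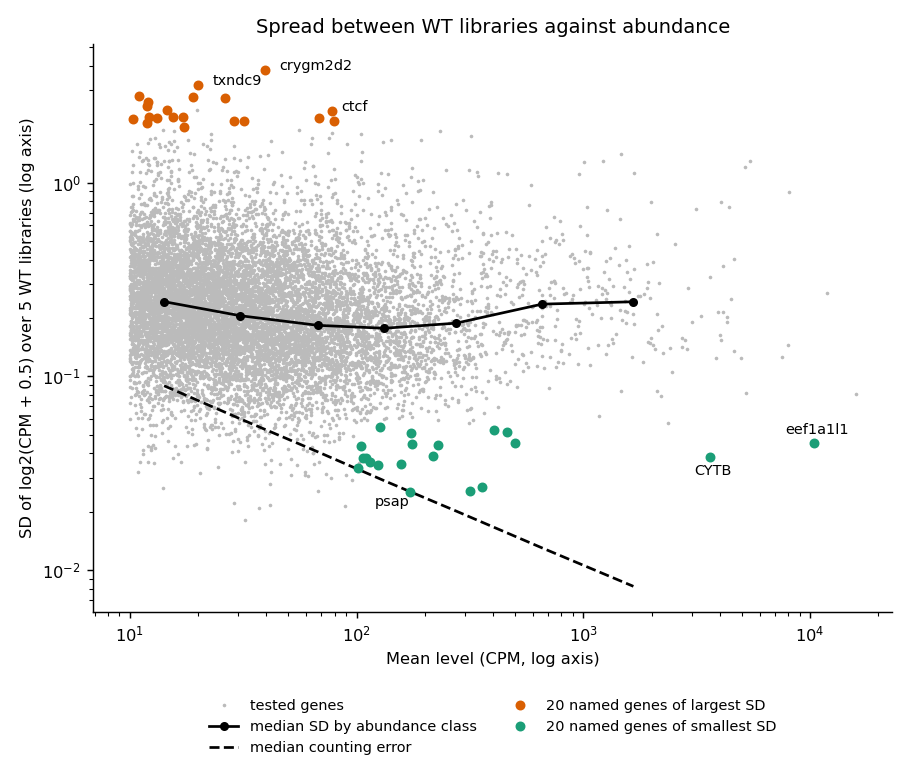
SD of log2(CPM + 0.5) over the 5 WT libraries against mean CPM (both axes log) for 10761 genes in grey, with the median SD by abundance class (line) and the median counting error (dashed). The 20 named genes of largest SD, from 1.93 to 3.82, lie mostly at low abundance, and the 20 of smallest SD, from 0.025 to 0.055, lie near the counting error or, for CYTB and eef1a1l1, at the highest abundances.

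Spread did not follow counting error down with abundance. The median SD was 0.243 at 10 to 20 CPM, 0.177 at 100 to 200 CPM and 0.242 at 1000 CPM or more, while the median counting error fell to 0.00824 in the last class against 0.0893 in the first. Thus 19.7% of the 127 most abundant genes had a 2-fold range, against 9.97% at 100 to 200 CPM. Among the most abundant were the muscle genes described above. The common biological coefficient of variation, edgeR's estimate of the spread beyond counting, was 0.232. The 5th and 95th percentiles of the SD were 0.079 and 0.63.

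The 20 named genes with the largest spread were mostly genes that were nearly missing from some libraries. They had SDs from 1.93 to 3.82, and the next named gene had 1.88. Lens and retina genes made up several of them. The gamma crystallin gene crygm2d2 was at 0.107, 0.0506, 0, 0 and 198 CPM in WT 1 to WT 5 and crygm2d1 at 17.9, 14.2, 7.47, 7.78 and 293 CPM, both far higher in WT 5. The rod gene rho was at 2.29, 0.758, 1.56, 26.1 and 30.001 CPM, the cone transducin gene gnb3a at 1.97, 0, 0.101, 16.1 and 36.7 CPM and the retinoschisin gene rs1a at 2.72, 1.57, 1.01, 16.9 and 37.6 CPM. In all 3 retinal genes WT 4 and WT 5 lay above the others. The lipoprotein gene apobb.1, at 60.0, 56.2, 171, 108 and 3.79 CPM, was also among the 20.

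Other genes with a large spread include broadly used and neural genes. The chromatin insulator gene ctcf was at 107, 159, 109.8, 4.34 and 8.82 CPM, more than 10-fold lower in WT 4 and WT 5 than in the other 3 libraries. The signal peptidase gene sec11a was at 27.7, 40.1, 25.6, 0 and 1.90 CPM, and cfdp1, a chromatin gene, at 15.4, 26.7, 16.0, 0 and 1.38 CPM, which is the same split. The mitochondrial ADP/ATP carrier gene slc25a4 was at 35.5, 42.8, 51.4, 1.11 and 13.7 CPM, the same order of libraries as the muscle gene actc1b. Of the neural transcription factors, pou3f2b was at 25.7, 29.0, 15.5, 6.72 and 0.256 CPM and barhl1a at 14.2, 17.998, 12.01, 21.3 and 0.103 CPM, both lowest in WT 5. The thioredoxin-domain gene txndc9 was at 10.1, 0, 0, 8.36 and 81.9 CPM, mlf2 at 40.8, 52.3, 24.2, 13.9 and 0 CPM and dnajc11a at 16.1, 14.6, 7.88, 13.3 and 0 CPM. In all, 7 of the 20 had no count in at least 1 library, and 5 of the 20 were in a tissue list. WT 5 was the highest library for 7 of the 20 and the lowest for 6, and WT 4 was the lowest for another 6.

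The 20 named genes with the smallest spread, among 1567 with at least 100 CPM, included housekeeping genes of secretion, splicing, translation and protein folding. The smallest SD, 0.025, was that of psap, the precursor of lysosomal saposins, at 173, 168, 172, 169 and 175 CPM. The splicing factor gene sf3b1 was at 317, 322, 317, 311 and 307 CPM and the disulfide isomerase gene pdia3 at 364, 353, 361, 349 and 363 CPM. The membrane traffic genes rab6a and rab1ab had SDs of 0.034 and 0.036. The initiation factor genes eif3g and eif3d had 0.044 and 0.053, and the chaperonin gene cct5 0.052. Mitochondrial cytochrome b, encoded by CYTB, was at 3741, 3515, 3693, 3569 and 3557 CPM. None of the 20 was in a tissue list, 9 were in a cell function list, and 13 had an SD under 2 times their counting error. On the TPM scale, which also carries the library shift given above, psap was at 69.3, 75.6, 82.2, 70.15 and 73.3 TPM.

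Genes often used as references in quantitative PCR differed in their spread. The steadiest was eef1a1l1, at 10225, 10158, 10661, 10025 and 10765 CPM, an SD of 0.045. Next were the actin gene actb2 with an SD of 0.082, rpl4 with 0.084 and ywhaz with 0.088. The ribosomal reference genes rpl13 and rps18 had 0.12 and 0.17, and tbp, the TATA-binding protein gene, had 0.17. At the other end, gapdh had an SD of 0.53, cdk4 0.49, rplp0 0.40 and polr2d 0.36. The gene rplp0 was at 5142, 3744, 2999, 5722 and 5431 CPM, lowest in WT 3 like the other ribosomal genes, and gapdh was at 1178, 934, 1603, 585 and 900.0 CPM, highest in WT 3.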

How the data were processed

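RNA-seq of 5 WT whole-embryo samples at 48 hours was used. Trim Galore 0.6.4, kallisto 0.4.6 and the build danRer11 are named in the submitters' processing notes, and no further step is given in the sources used here. The authors deposited estimated counts and TPM per Entrez gene ID. The deposited estimated counts are not whole numbers and were rounded for edgeR. The depth of 18.1 to 19.97 M estimated counts per library sets the counting error given beside the spread. The column of WT replicate 5 carries the number 6 in the file headers.

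Names came from a RefSeq gene table of another assembly (GRCz12tu), used for names and gene order only. Of 30243 IDs, 25812 matched a symbol, and the other 4431 held 1.71% ± 0.220 of counts. Estimated counts were scaled by TMM (edgeR 4.0.16, R 4.3.3) to CPM. The SD of log2(CPM + 0.5) was taken for genes averaging at least 10 CPM. With 1 group there was no test and no p-value. On simulated libraries with a coefficient of variation of 0.15, 0.166 was recovered, and an SD of 0.5 or more was reached by 92 of 100 genes with an added SD of 1, 38 of 100 with 0.5 and 13 of the rest of 10772 genes. The simulated coefficient was set below the common value estimated for the WT libraries. The 13 genes are therefore no background count for these data.

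The members and gene lists were chosen with earlier results of these data known. Of 1405 list names, 48 were not matched. Genes were named by rule: the 30 highest by TPM, the 3 highest of each tissue list, the 20 named genes of largest SD, the 20 of smallest SD with at least 100 CPM, 10 genes with the highest count in a library among those at 0 in another, and 30 reference genes for quantitative PCR. Any other gene is said to be chosen after its values were seen. The alternatives were DESeq2 size factors (version 1.42.0), TPM, a lower filter or none, another pseudocount, thinning to equal depth, shares of counts, leaving out mitochondrial genes and leaving out each library.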

Additional observations from a re-analysis of the deposited data

Results flagged for a closer look

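A library was set apart when its gap to the nearest other library exceeded 0.71 of the range over the 5 libraries (Dixon's ratio). Chance sets apart about 5% of groups, and 4.27% of all 10761 genes (459) were so placed. Of the 185 named genes 14 were set apart, of the 49 gene lists 1, and of 17 measures of whole libraries 0. Genes chosen for a large spread or for a 0 in a library are prone to it. Over all 10761 genes, WT 3 was set apart low for 117 and high for 33, and WT 5 low for 73 and high for 77. WT 4 was low for 82 and high for 14, WT 1 low for 12 and high for 23, and WT 2 low for 9 and high for 19.

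Among the 14 named genes, which were partly chosen for their spread, WT 5 was the library set apart for 9. It was high for crygm2d2 (198 CPM), crygm2d1 (293 CPM), dlgap5, a mitotic spindle gene (33.5 CPM), mrpl30, of the mitochondrial ribosome (19.5 CPM), smad6a, an inhibitor of BMP signalling (19.1 CPM), and the polyubiquitin gene ubc (1748 CPM). It was low for mlf2 (0 CPM), dnajc11a (0 CPM) and the neural homeobox gene barhl1a (0.103 CPM). For the rest of the 14 genes another library was set apart. WT 3 was low for eif3d (379.6 CPM) and for the elastase gene cela1.4 (3.43 CPM). WT 2 was low for rab6a (97.4 CPM) and for ela2l, another elastase gene (0 CPM). WT 1 was high for rpl4 (2329 CPM) and for the exocrine pancreas share (0.00430% of TPM). Both eif3d and rab6a were among the 20 named genes of smallest SD, so their gaps were small in size. The elastase genes averaged under 10 CPM and lie outside the 10761 genes behind the 4.27%. With no filter that share was 8.96%.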

How the results depend on the processing

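No paired analysis was possible because the WT libraries form 1 group and the results come from no test. The highest or lowest library of a program changed between TMM and TPM scaling for the lens, epidermis, neuron and erythroid lists, as given with each. Leaving out each library gave 1019 to 1591 genes with a 2-fold range, lowest without WT 3. The mean share of a program cannot move by as much as the SD when 1 of 5 libraries is left out. That none of the 49 program shares moved beyond the spread between libraries was therefore fixed in advance and says nothing of their stability. Filtering at 1 CPM gave 4555 genes with a 2-fold range, 2813 with an SD of 0.5 or more and 946 with a library set apart, and no filter gave 5921, 3534 and 2536. A median moment estimate of the coefficient of variation was 0.14. DESeq2 size factors moved the SD of none of 185 named genes, TPM moved 35, and leaving out 1 library moved 82 values and kept 843. At 5 TPM, 8770 genes were detected in all libraries.

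By share of estimated counts, 549.4 genes held 50%, the top 10 held 8.61% and the top 100 28.5%. The programs that moved were ribosomal 10.17%, mitochondrial 5.02%, translation factors 3.16%, RNA binding 2.49%, actin and tubulin 1.96%, chaperones 1.96%, epidermis 1.82%, neurons 1.40%, respiratory chain 1.203%, connective tissue 0.680%, neural progenitors 0.635%, cell cycle 0.618%, proteasome 0.534%, histones 0.515%, cartilage 0.411%, iron and redox 0.277%, erythroid 0.209%, melanophores 0.142%, endothelium 0.113%, glia 0.105%, leukocytes 0.0702%, photoreceptors 0.0671%, pronephros 0.0631%, xanthophores 0.0500%, endocrine pancreas 0.0389%, inner ear 0.0343%, ionocytes 0.0342%, iridophores 0.0334%, motile cilia 0.0101% and germ cells 0.000955%, and 7 state lists: amino acid and unfolded protein 0.179%, immediate early 0.101%, p53 0.0921%, hypoxia 0.0910%, clock 0.0730%, heat shock 0.0116% and interferon 0.00969%. The change of scale from per length to per count is the construction of this alternative.

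Without mitochondrial genes the top 10 held 10.8%, respiratory chain 2.72%, translation factors 2.35%, RNA binding 2.06%, actin and tubulin 1.93%, chaperones 1.75%, proteasome 0.640%, iron and redox 0.398%, melanophores 0.0876%, glia 0.0384% and motile cilia 0.00779%, and amino acid and unfolded protein 0.136%, immediate early 0.0641% and interferon 0.00454%. Without genes of very short length, an alternative chosen after seeing the data, the top 10 held 11.6%.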

Other observations

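Lists that follow the state of the embryo held small shares. Clock genes took 0.0247% ± 0.00249 of TPM, hypoxia genes 0.0397% ± 0.00461, p53 targets 0.0487% ± 0.00553, immediate early genes 0.0583% ± 0.00523 and amino acid and unfolded protein response genes 0.124% ± 0.00765 (SD, n = 5). Interferon-response genes took only 0.00413% ± 0.000308, and 1 of 34 reached 10 CPM. Of 15 names for inducible heat shock genes, 9 were already counted in an earlier list, and 5 genes were left. These 5 took 0.00474, 0.00508, 0.00520, 0.00215 and 0.00424% in WT 1 to WT 5, lowest in WT 4. Of the 4 with at least 10 CPM, 3 had a 2-fold range. Together 15 of the 88 state genes with at least 10 CPM had a 2-fold range (17.0%), near the 15.0% of all genes.

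A set of 44 genes had no count in at least 1 WT library and 100 or more in another. WT 5 was highest for 24 of them, against 29.1% of the genes with at least 10 CPM. Chosen after their values were seen, the condensin gene ncapg had 308, 161, 378, 0 and 0 estimated counts in WT 1 to WT 5 and the glucocorticoid receptor gene nr3c1 169.7, 110.2, 249, 110.5 and 0. Of the 44 genes, 8 were at 0 in every library but WT 5, among them mrpl30 with 379.6 counts there, smad6a with 373 and mlst8, of the mTOR complexes, with 324. Of the 44 genes, 42 were placed in the RefSeq order, and 16 had another gene of the set within 20 genes. Several of the 16 lie in the stretch from dlgap5 to zdhhc4 described next. No such count was made for other genes, so whether the set is clustered was not tested.

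One stretch on chromosome 12 of the RefSeq order, from dlgap5 to zdhhc4, was chosen after its values were seen. It holds 28 protein-coding genes, of which 25 are listed. WT 5 was the highest library for 14 of them, against 29.1% of the genes with at least 10 CPM. In the same stretch 6 genes were at 0 in WT 1 to WT 4 and above 0 in WT 5. There dlgap5 had 5.65, 2.22, 0, 10.1 and 654 estimated counts, and the vesicle fusion gene ccz1 had 3.88, 4.26, 0, 3.75 and 306. The gene atpaf2, an assembly factor of the ATP synthase, had 0, 0, 0, 1.61 and 245. Other genes of the stretch were counted in every library, such as trrap, of histone acetyltransferase complexes, at 1946, 2475, 2260, 1793 and 1973 and tecpr1a at 297, 316, 314, 393 and 392. Some of them were uneven in another order, such as the parvalbumin gene pvalb9 at 169.5, 110.5, 187.5, 343 and 86. A stretch on chromosome 18, from cfdp1 to sec11a, with 35 listed genes, was also chosen after its values were seen. There cfdp1 had 290, 528, 316, 0 and 27.4 estimated counts and sec11a 520, 793, 507, 0 and 37.2. The gene kti12 had 48.9, 55.6, 38.1, 0 and 0. Others there, such as idh2 and nudt21, were counted in every library. Why genes of either stretch differ between libraries was not tested.

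The effective length of a gene, read as estimated counts per TPM, was nearly fixed, with a median ratio of 1.005 between the libraries' extremes and 122 of 10754 genes over 1.2. The largest ratios were 2.16 for socs5a and 2.14 for cuedc1b, and the muscle gene dmd, for dystrophin, had 1.70.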
